A study of Mus musculus with 4 samples.

Results

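The Serpin genes encode a family of protease inhibitors and related proteins, and all genes whose symbol starts with Serpin were taken, 42 of the 16504 genes with a single symbol on the array. Clade a gave 13 of them, clade b 20 and clades c to i 9. Each of 41 members was measured by 1 spot, and Serpinb5 by 2. Most inhibitory serpins present a flexible loop as bait, and the protease that cuts it is trapped in a covalent complex as the serpin refolds. The liver secretes many clade a members and antithrombin, heparin cofactor II, antiplasmin and C1 inhibitor into plasma, where they hold elastase, clotting, fibrinolysis and complement proteases in check. Some clade a members carry hormones and inhibit nothing, while clade b members mostly stay inside cells and guard them against proteases of granules and lysosomes.

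The study fed mice with polygenic obesity either conjugated linoleic acid (CLA, a group of linoleic acid isomers) or ordinary linoleic acid (LA), and took liver RNA at day 14. Pools of 5 or 4 samples made up each RNA, and each of 4 arrays carried a CLA pool beside an LA pool, one in the dye Cy5 and the other in Cy3. Arrays 1 and 2 had the CLA pool in Cy5, whereas arrays 3 and 4 had it in Cy3. No source used here gives the strain, age or sex of the mice or which arrays share a pool, so p-values measure only the spread between these 4 arrays, which may be technical, and the small number of arrays limits the precision.

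The deposited values are log ratios of the 2 channels, and their direction is not given. If they run as Cy5 over Cy3, the part of a gene's ratio that changes sign between the dye orientations is CLA over LA. This is called the dye reading, and the part was computed with arrays 3 and 4 turned. If they were already turned to CLA over LA, the part that keeps its sign on all arrays is CLA over LA, which is called the direct reading. Both rest on arrays 1 and 2 running as CLA over LA, and the opposite would turn every sign. No direction of a CLA effect is therefore settled, and both parts are given for each gene. Values are log2 ratios as deposited unless a part is named. A ratio gives no level, so the abundance of a gene in liver, the presence of defining markers, and fewer cells of a type against less RNA per cell could not be told from these values. Across genes, which are not replicates, Pearson's r between arrays was 0.43 for arrays 1 and 2 and 0.76 for arrays 3 and 4 over the 42 members, and -0.68 to -0.41 for the 4 pairs of opposite orientation. Over all genes the same values were 0.37, 0.73 and -0.63 to -0.20.

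The alpha-1-antitrypsin gene Serpina1d and albumin (Alb), the main protein of plasma, had nearly the same ratios on 3 arrays. The sign-keeping part of Serpina7, the thyroxine carrier, was of like size, but its ratios had the opposite sign to those of Alb on arrays 1 and 4. None of these genes passed the test. The bases before the annotated start of these genes and of antithrombin (Serpinc1), whose ratios changed sign with the dyes, are shown from RefSeq (GRCm38.p6), 250 bases each, 5′ to 3′ on the strand of the gene. Capitals mark GTTAAT, a half-site of the liver factor HNF1, and the TATA box TATAAA of many promoters, both searched on both strands. Of the 4 windows shown, that of Serpina7 holds both, apart from each other.
Serpina1d, chr12:103773634-103773883, minus strand: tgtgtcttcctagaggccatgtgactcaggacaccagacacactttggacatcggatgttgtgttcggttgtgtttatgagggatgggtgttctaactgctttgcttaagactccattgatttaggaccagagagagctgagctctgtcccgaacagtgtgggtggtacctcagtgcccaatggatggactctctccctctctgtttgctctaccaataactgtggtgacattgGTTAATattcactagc
Serpina7, chrX:139085237-139085486, minus strand: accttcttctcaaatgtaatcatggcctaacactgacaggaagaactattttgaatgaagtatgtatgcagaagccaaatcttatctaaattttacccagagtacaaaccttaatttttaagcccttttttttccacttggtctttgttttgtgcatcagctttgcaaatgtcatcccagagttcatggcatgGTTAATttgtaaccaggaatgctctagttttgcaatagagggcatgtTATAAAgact
Serpinc1, chr1:160978333-160978582, plus strand: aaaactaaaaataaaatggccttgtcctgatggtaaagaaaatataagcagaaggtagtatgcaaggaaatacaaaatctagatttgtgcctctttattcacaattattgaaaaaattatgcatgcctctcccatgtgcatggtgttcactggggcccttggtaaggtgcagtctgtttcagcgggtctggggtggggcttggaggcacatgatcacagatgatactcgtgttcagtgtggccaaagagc
Alb, chr5:90460620-90460869, plus strand: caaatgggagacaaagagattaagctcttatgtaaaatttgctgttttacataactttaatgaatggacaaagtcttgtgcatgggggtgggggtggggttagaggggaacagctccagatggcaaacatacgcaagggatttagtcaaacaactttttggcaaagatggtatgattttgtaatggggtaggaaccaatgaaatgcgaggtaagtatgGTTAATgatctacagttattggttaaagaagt
Promoters of 35 members were matched, with the first listed start of each gene. Serpina6, Serpina10 and Serping1, listed as secreted by liver, were not among them. GTTAAT stood in 5 of the 35 (Serpina1d, Serpina7, Serpinb3d, Serpinb8 and Serpini2) and in 6.52% of 27025 promoters of the same length. The sign-keeping parts of these members were 0.43, 0.43, -0.14, -0.17 and 0.18 in that order, and a link between motif and ratio was not tested. TATAAA stood in 8 of the 35 (Serpina3a, Serpina3b, Serpina7, Serpinb2, Serpinb3d, Serpinb7, Serpinb12 and Serpini2) and in 12.97% of all, so Serpina7, Serpinb3d and Serpini2 held both. A match describes the letters of the window and is not a bound site.

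As a family the Serpin genes did not stand apart from other genes on these arrays. In the sign-changing part, 7 of the 42 members passed the test (limma, Benjamini-Hochberg adjusted p under 0.05 over all genes), which is 16.7% of the members beside 17.1% of all genes (2818 of 16504). Of these 2 were positive, beside 7.37% of all genes, and 5 negative, beside 9.71%. At an unadjusted p under 0.05 there were 16 members, beside 38.4% of all genes. Their median in that part was 0.05, against 0.02 over all genes, and 26 were positive and 16 negative. In the part that keeps its sign, 0 of 42 members and 0% of all genes passed (limma, lowest adjusted p = 0.35), with 6 members and 13.5% of all genes at an unadjusted p under 0.05. The members' median there was 0.01, against 0.001 over all genes, with 22 positive and 20 negative. With arrays 3 and 4 turned, 16 members (38.1%) had 1 sign on all 4 arrays, beside 42.9% of all genes. As deposited, 4 members (9.52%) did so, beside 9.62%. The calls depend on single arrays: 3 members (533 of all genes) were called when array 1 was dropped, and 3 members (681 of all genes) when array 2 was. When array 3 or array 4 was dropped, 0 members and 0 of all genes were (limma, with 4710 and 4015 genes at an unadjusted p under 0.05).

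**Figure D1:**
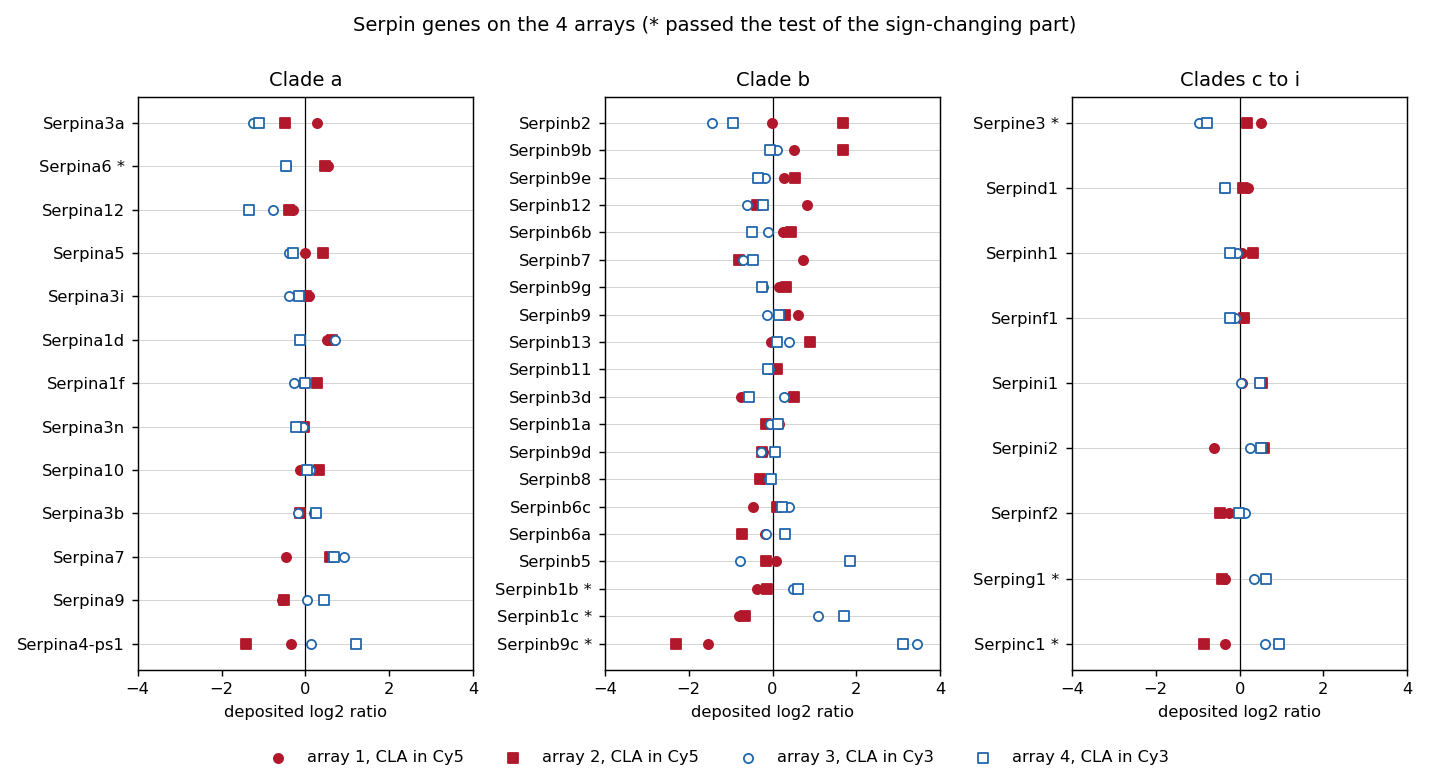
Deposited log2 ratio of each Serpin gene (horizontal axis) on each array, with members of a clade ordered by the sign-changing part, filled symbols for CLA in Cy5 and open symbols for CLA in Cy3. Stars mark the 7 members past the test, in which filled and open symbols lie on opposite sides of 0, with Serpinb9c spanning -2.31 to 3.45.

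Antithrombin and C1 inhibitor, plasma inhibitors of clotting and of complement and contact proteases, had the same pattern. Serpinc1, which encodes antithrombin, had log2 ratios of -0.34 and -0.86 on arrays 1 and 2, against 0.60 and 0.93 on arrays 3 and 4. Serping1, which encodes C1 inhibitor, had -0.34 and -0.42 on arrays 1 and 2, against 0.33 and 0.64 on arrays 3 and 4. Both genes were negative on each array with CLA in Cy5 and positive on each array with CLA in Cy3. They were singled out by the test of the sign-changing part, so this adds no support. With arrays 3 and 4 turned, 42.9% of all genes had 1 sign on all arrays. The sign-changing part was -0.68 ± 0.13 (SE, n = 4) for Serpinc1 (limma adjusted p = 0.036), a 1.60-fold difference that would be lower with CLA in the dye reading. That of Serping1 was -0.43 ± 0.09 (adjusted p = 0.044, 1.35-fold). In the direct reading the CLA over LA values were 0.08 ± 0.13 and 0.05 ± 0.09, with adjusted p of 0.77 and 0.80. Alternatives that used all 4 arrays gave a limma adjusted p of the sign-changing part from 0.033 to 0.043 for Serpinc1, with 6 calls kept. For Serping1 they gave 0.043 to 0.053, with 5 kept. Among them, equal weight of features could hardly change a gene with 1 spot, so the tally adds little support. With an array left out the part ran from -0.81 to -0.55 for Serpinc1 and from -0.51 to -0.36 for Serping1. The calls depended on single arrays, as given above for the family.

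Serpina6 encodes corticosteroid-binding globulin, the plasma carrier of glucocorticoids, and ran the other way. Its log2 ratios were 0.54 and 0.47 on arrays 1 and 2, against -0.45 and -0.47 on arrays 3 and 4. The 2 arrays of an orientation lay closer together than those of the other members called. Its sign-changing part was 0.48 ± 0.08 (SE, n = 4, limma adjusted p = 0.031), a 1.40-fold difference that would be higher with CLA in the dye reading, and its sign-keeping part was 0.02 ± 0.08 (adjusted p = 0.91). The call was kept in the 6 alternatives that used all 4 arrays, with limma adjusted p from 0.031 to 0.040. With an array left out the part ran from 0.46 to 0.50, and the calls depended on single arrays, as given above.

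The other measured members listed as secreted by liver had sign-changing parts of smaller size, and none of them passed. Serpind1, heparin cofactor II, had 0.21 and 0.09 on arrays 1 and 2, against -0.36 and -0.34 on arrays 3 and 4. Serpinf2, which encodes the plasmin inhibitor alpha-2-antiplasmin, had -0.26 and -0.47 on arrays 1 and 2, against 0.12 and -0.02 on arrays 3 and 4. Serpinf1, which encodes the vessel growth inhibitor PEDF, had 0.11 and 0.10 on arrays 1 and 2, against -0.10 and -0.22 on arrays 3 and 4. Serpind1 and Serpinf1 kept 1 sign on all arrays once arrays 3 and 4 were turned, and Serpinf2 did not. Serpina10 encodes an inhibitor of clotting factor X that depends on protein Z, with -0.13 and 0.32 on arrays 1 and 2, against 0.12 and 0.04 on arrays 3 and 4. Serpina3n, a relative of antichymotrypsin known as an acute phase gene in mice, had -0.10 and -0.04 on arrays 1 and 2, against -0.07 and -0.22 on arrays 3 and 4. It lay below 0 on all 4 arrays, and its sign-keeping part was -0.11 ± 0.08 (SE, n = 4, limma adjusted p = 0.55). The remaining 7 genes listed as secreted by liver (Serpina1a, Serpina1b, Serpina1c, Serpina1e, Serpina3k, Serpina3m and Serpina11) were not analysed here.

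Serpina1d is one of several near-identical mouse copies of alpha-1-antitrypsin, the plasma inhibitor of neutrophil elastase, and a spot for it cannot be assumed to separate the copies. Its log2 ratios were 0.53 and 0.63 on arrays 1 and 2, against 0.71 and -0.14 on arrays 3 and 4. Those of Alb were 0.53, 0.63, 0.91 and -0.14 in the same order. On arrays 1, 2 and 4 the genes differed by less than 0.005, and on array 3 by 0.20. By the rule of at most 0.1 on every array, 0 members and 0% of all other genes were near-identical to Alb. At most 0.2 on every array held for 0 members and 0.0182% of other genes. Serpina1d missed this narrowly, with a gap of 0.20005 on array 3. These limits, and the 0.005 used below, rest on the assumed log base of 10. With base 2 every gap would be smaller by a factor of 3.32, and Serpina1d would meet the rule of 0.1. In root mean square distance over the 4 arrays Serpina1d was the second closest of all genes to Alb, at 0.10. The closest were Wfdc2 (0.09), Serpina1d, P2ry10b (0.11), Apoe (0.12) and Rundc3a (0.16). The next Serpin gene was Serpinb13, at rank 381, and its largest gap to Alb, 0.565, was the smallest among members other than Serpina1d.

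A few other features matched Alb as Serpina1d did. A tolerance of 0.005 log2 on at least 3 arrays, chosen after the values were seen, was met by 7 features beside Alb: Serpina1d, Apoa2, Mup5 and 4 features without a named gene. Apoa2, an apolipoprotein of high density lipoprotein, had 0.53, 0.63, 0.54 and -0.14 on arrays 1 to 4, and Mup5, a major urinary protein, had 0.53, 0.63, 0.54 and -0.14. These genes agreed on arrays 1, 2 and 4 and ran from 0.54 to 0.91 on array 3. Apoe, an apolipoprotein, had 0.53, 0.62, 0.68 and -0.10. Most listed liver products did not match: of the 18 measured genes listed as other secreted hepatocyte products, Apoa2 alone matched Alb (itself on the list), and Ttr, for example, had 0.40, 0.17, -0.50 and -0.24, and Apoa1 -0.33, -0.76, 0.48 and 1.31. Among all 22393 features, 4.92% had at least 1 other feature within 0.005 on at least 3 arrays and 7 features had 6 or more. Alb had 7 such partners, the highest number found, and Serpina1d had 6. Of the 43 Serpin spots, 3 had any. Spot intensities and saturation flags were not used here, and the cause of the shared values was not tested. The sign-keeping part of Serpina1d was 0.43 ± 0.16 (SE, n = 4, limma adjusted p = 0.36), and its sign-changing part 0.14 ± 0.16 (adjusted p = 0.54). Alb had 0.48 ± 0.19 and 0.09 ± 0.19 (adjusted p = 0.37 and 0.74).

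**Figure D2:**
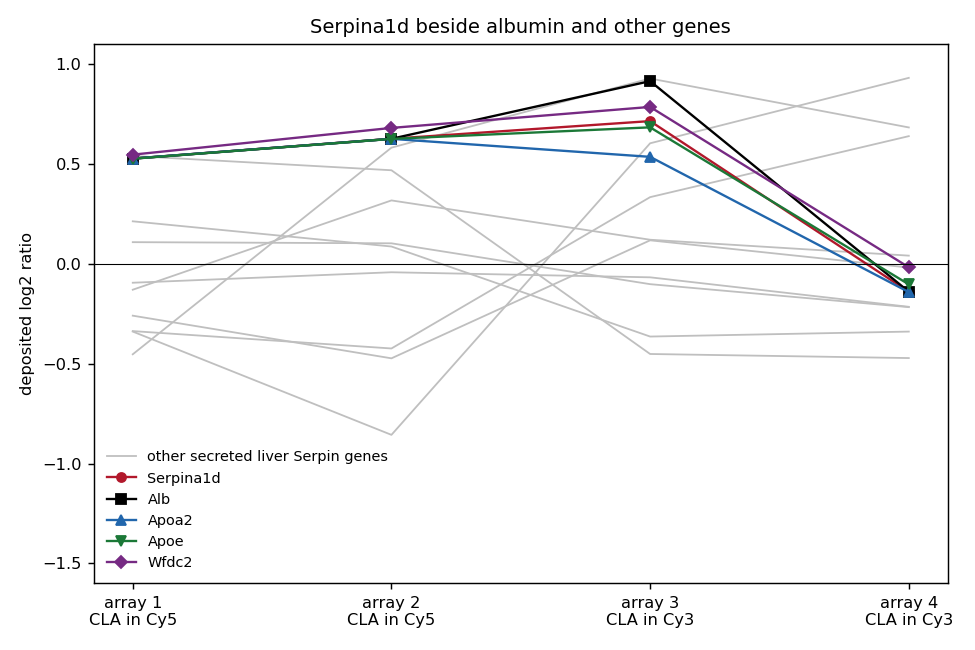
Deposited log2 ratio (vertical axis) on arrays 1 to 4 (horizontal axis) for Serpina1d, Alb, Apoa2, Apoe and Wfdc2, with the other secreted liver Serpin genes as grey lines. Serpina1d, Alb and Apoa2 coincide on arrays 1, 2 and 4 (0.53, 0.63 and -0.14) and separate on array 3 (0.71, 0.91 and 0.54).

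Serpina7 encodes thyroxine-binding globulin, a hormone carrier, and lies on the X chromosome apart from the other clade a members. Its log2 ratios were -0.45 and 0.58 on arrays 1 and 2, against 0.93 and 0.68 on arrays 3 and 4, so array 1 stood against the other 3. The sign-keeping part was 0.43 ± 0.19 (SE, n = 4, limma adjusted p = 0.39), a 1.35-fold difference that would be higher with CLA in the direct reading, and the sign-changing part was -0.37 ± 0.19 (adjusted p = 0.22).

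The rest of clade a lies in one cluster on chromosome 12, where 12 members were measured, 1 passed (Serpina6, beside 17.1% of all genes) and 10 had a positive sign-changing part, beside 8661 of 16504 genes. Of the 10, Serpina3b and Serpina10 were near 0, at 0.0004 and 0.0065. Serpina12 encodes vaspin, a serpin of adipose tissue. Its log2 ratios were -0.31 and -0.40 on arrays 1 and 2, against -0.78 and -1.35 on arrays 3 and 4, below 0 on every array. With a sign-keeping part of -0.71 ± 0.12 (SE, n = 4, 1.63-fold) it was the lowest member in the direct reading, with limma adjusted p = 0.35, and its sign-changing part was 0.36 ± 0.12 (adjusted p = 0.10). Measured markers of adipose tissue (4 of 5 listed, Cfd not analysed here) had list means of -0.50 and -0.09 on arrays 1 and 2, against 0.44 and 0.41 on arrays 3 and 4. These means were opposite in sign to Serpina12 on arrays 3 and 4. Single markers differed, and on array 4 they ran from -0.18 (Plin1) to 1.21 (Retn). The part of adipose tissue in these ratios was not tested. Serpina3a had 0.29 and -0.48 on arrays 1 and 2, against -1.24 and -1.12 on arrays 3 and 4. Its sign-keeping part was -0.64 ± 0.15 and its sign-changing part 0.54 ± 0.15 (limma adjusted p = 0.35 and 0.069). The sign-changing part ran from 0.35 to 0.73 when an array was left out. Serpina4-ps1, a transcribed pseudogene related to kallistatin, had -0.33 and -1.41 on arrays 1 and 2, against 0.12 and 1.20 on arrays 3 and 4, with a sign-changing part of -0.77 ± 0.26 (adjusted p = 0.10). Arrays of 1 orientation differed by over 1 log2 unit in this gene. Serpina9, known from germinal centre B cells, had a sign-changing part of -0.39 ± 0.10 (adjusted p = 0.066). Serpina5, the protein C inhibitor that mice make mainly in the reproductive tract, was at 0.27, Serpina3i at 0.16, Serpina1f at 0.13 and Serpina3b at 0.0004 in that part, and none passed.

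The 3 clade b genes that passed lie on chromosome 13 and were negative, and 2 of them had the largest sign-changing parts of the family. Serpinb9c had log2 ratios of -1.53 and -2.31 on arrays 1 and 2, against 3.45 and 3.11 on arrays 3 and 4. Serpinb1c, one of the mouse relatives of the neutrophil elastase inhibitor SERPINB1, had -0.80 and -0.65 on arrays 1 and 2, against 1.09 and 1.71 on arrays 3 and 4. Serpinb1b, another of them, had -0.37 and -0.13 on arrays 1 and 2, against 0.48 and 0.61 on arrays 3 and 4. In each the arrays with CLA in Cy5 were negative and those with CLA in Cy3 positive, and 42.9% of all genes had 1 sign once arrays 3 and 4 were turned. The sign-changing part was -2.60 ± 0.16 for Serpinb9c (SE, n = 4, limma adjusted p = 0.0057, 6.07-fold), a value reached or passed by 32 of 16504 genes, Serpinb9c included. It was -1.07 ± 0.13 for Serpinb1c (adjusted p = 0.023, 2.09-fold) and -0.40 ± 0.09 for Serpinb1b (adjusted p = 0.047, 1.32-fold), each of which would be lower with CLA in the dye reading. In the direct reading they were at 0.68 ± 0.16, 0.34 ± 0.13 and 0.15 ± 0.09, with adjusted p of 0.35, 0.37 and 0.47, so the sign is opposite between the readings. Alternatives that used all 4 arrays gave limma adjusted p from 0.0025 to 0.024 for Serpinb9c and from 0.020 to 0.040 for Serpinb1c. For Serpinb1b they gave 0.037 to 0.074, with 4 calls kept. With an array left out the parts ran from -2.79 to -2.41, from -1.22 to -0.91 and from -0.46 to -0.34 in that order. The calls depended on single arrays, as given above. Measured markers of neutrophils, the cells whose elastase SERPINB1 inhibits, gave 0 calls among 6 genes in the sign-changing part, beside 17.1% of all genes. Their list means were 0.28 and 0.40 on arrays 1 and 2, against -0.11 and 0.28 on arrays 3 and 4. Single markers differed, and on array 4 they ran from -0.59 (Mpo) to 1.20 (S100a8). The part of neutrophils in these ratios was not tested.

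Neighbours of these genes had either sign. Each was measured by 1 spot, and whether a spot separates these related genes was not checked. Of the 12 clade b members on chromosome 13, 7 had a negative and 5 a positive sign-changing part. Serpinb6b, Serpinb9 and Serpinb9b follow each other between Serpinb1c and Serpinb1b among the measured members, and were at 0.32, 0.22 and 0.54. Serpinb9d, Serpinb9e and Serpinb9g, on the far side of Serpinb9c, were at -0.06, 0.33 and 0.23. Serpinb1b and Serpinb9d, next to Serpinb9c among the measured members, were negative, as was Serpinb1a next to Serpinb1c. Serpinb9 is the inhibitor of granzyme B. Serpinb9b had 0.51 and 1.68 on arrays 1 and 2, against 0.11 and -0.07 on arrays 3 and 4, and with 0.56 ± 0.21 (SE, n = 4, limma adjusted p = 0.37) it was the second highest member in the sign-keeping part after Serpinb9c. The sign-changing part of Serpinb9b ran from 0.24 to 0.83 when an array was left out. Serpinb1a, the third SERPINB1 relative, was at -0.02, and Serpinb6a and Serpinb6c were at -0.26 and -0.24.

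The 8 clade b members on chromosome 1 gave 0 calls (limma, adjusted p under 0.05), beside 17.1% of all genes, and their sign-changing parts ran from -0.29 to 1.01 with 6 positive. Serpinb2, an inhibitor of the urokinase plasminogen activator, had -0.00075 and 1.69 on arrays 1 and 2, against -1.44 and -0.93 on arrays 3 and 4. Its sign-changing part, the highest of the family at 1.01 ± 0.30 (SE, n = 4), did not pass (limma adjusted p = 0.079). That part ran from 0.59 to 1.44 when an array was left out. Serpinb5, known as maspin, was measured by 2 spots of the same accession that disagreed. The first had 0.02, -0.51, -1.17 and 4.03 on arrays 1 to 4, and the second 0.13, 0.19, -0.36 and -0.32. Their mean therefore rests on a single spot on array 4. Serpinb7, known as megsin, had 0.74 and -0.81 on arrays 1 and 2, against -0.71 and -0.46 on arrays 3 and 4, so array 1 stood against the others. Serpinb12 was at 0.32, Serpinb13 at 0.08, Serpinb11 at 0.07, Serpinb3d at 0.009 and Serpinb8 at -0.10 in the sign-changing part, and Serpinb8 was below 0 on all arrays as deposited (-0.31 to -0.05).

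**Figure D3:**
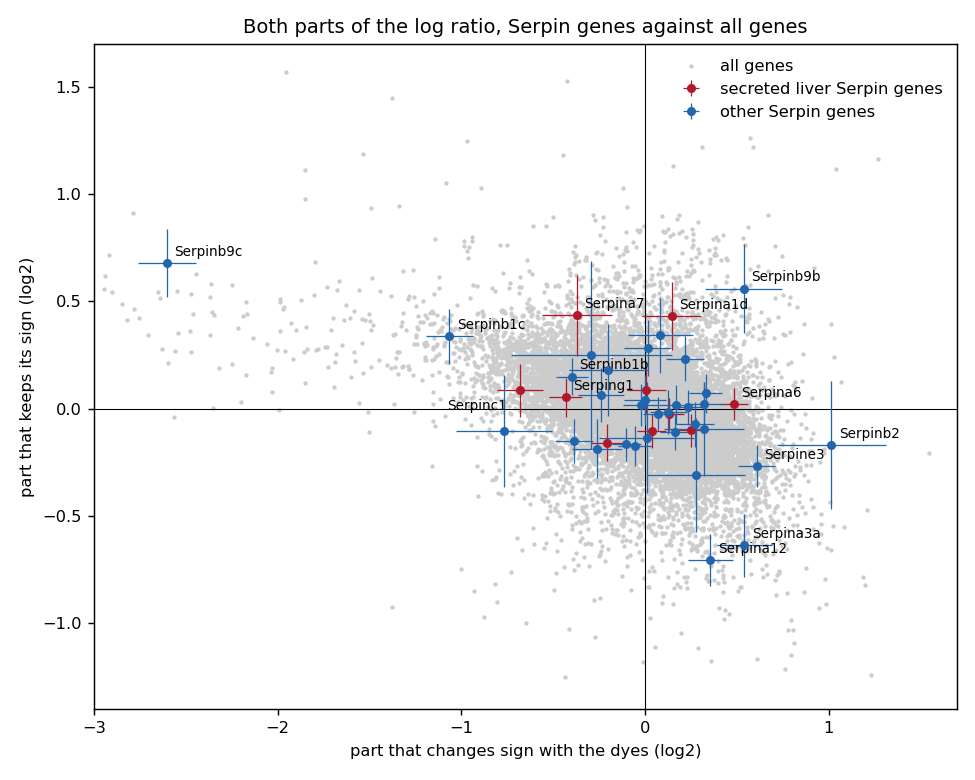
Sign-changing part (horizontal axis) against sign-keeping part (vertical axis) of the log2 ratio, with SE bars from limma (n = 4 arrays), for secreted liver Serpin genes (red), other Serpin genes (blue) and all genes (grey, 18 of which lie outside the axes). Serpinb9c (-2.60 and 0.68) lies far from the other members, whose sign-changing parts run from -1.07 to 1.01.

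Among the other members of clades c to i, Serpine3, a relative of plasminogen activator inhibitor 1, passed. Its log2 ratios were 0.51 and 0.17 on arrays 1 and 2, against -0.97 and -0.78 on arrays 3 and 4, positive with CLA in Cy5 and negative with CLA in Cy3. The sign-changing part was 0.61 ± 0.10 (SE, n = 4, limma adjusted p = 0.032, 1.52-fold), which would be higher with CLA in the dye reading, and the sign-keeping part was -0.27 ± 0.10 (adjusted p = 0.36). The call was kept in 5 of the alternatives that used all 4 arrays, with limma adjusted p from 0.024 to 0.061 among them. With an array left out the part ran from 0.52 to 0.69, and the calls depended on single arrays, as given above. Serpinh1, a collagen chaperone of the endoplasmic reticulum that inhibits no protease, was at 0.17 ± 0.09 (adjusted p = 0.24). Measured stellate cell markers, collagen genes among them, gave 0 calls among 5 genes in the sign-changing part, beside 17.1% of all genes. Serpini1, neuroserpin, was above 0 on all arrays as deposited (0.04 to 0.53), with a sign-keeping part of 0.28 ± 0.13 (adjusted p = 0.40), and Serpini2 had -0.62 on array 1 and 0.25 to 0.58 on the others.

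Differences between clades, and between secreted liver members and the others, were smaller than their SD over arrays. That SD is not an SE, and for each part it also counts the other part of the difference as spread. On arrays 1 to 4 the mean log2 ratio was -0.02, -0.02, -0.14 and -0.09 in clade a, and -0.05, 0.03, 0.07 and 0.24 in clade b. The clade b means lean on Serpinb9c, at 3.45 and 3.11 on arrays 3 and 4, and on Serpinb5, at 1.85 on array 4. Medians on arrays 1 to 4 were -0.06, 0.02, -0.17 and -0.14 in clade a. In clade b they were -0.0096, -0.0099, -0.096 and 0.0014. Clade a minus clade b was 0.13 ± 0.17 (SD, n = 4 arrays) in the sign-changing and -0.14 ± 0.16 in the sign-keeping part. The per-array differences as deposited were 0.03 and -0.05 on arrays 1 and 2, against -0.21 and -0.33 on arrays 3 and 4. Arrays of 1 orientation thus lay closer to each other than to those of the other orientation. The median sign-changing part was 0.13 in clade a, 0.04 in clade b and 0.01 in clades c to i, with 1 of 13, 3 of 20 and 3 of 9 members past the test beside 17.1% of all genes. The 10 secreted liver members had mean ratios of -0.02, 0.04, 0.18 and 0.09 on arrays 1 to 4, and the 32 others had -0.05, 0.002, -0.08 and 0.12. Secreted liver members minus the others was -0.04 ± 0.15 (SD, n = 4 arrays) in the sign-changing part, where leaving out array 3 gave 0.03 and leaving out array 4 gave -0.11. In the sign-keeping part it was 0.07 ± 0.13, with 0.003 without array 3 and 0.15 without array 4. Of the secreted members 3 of 10 passed (Serpina6, Serpinc1 and Serping1), and of the others 4 of 32. These are descriptions with no test, since an exact two-sided permutation of 2 arrays against 2 cannot give a p below 0.333.

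Markers of cell types were set beside these values as shifts only, and their part in the results was not tested. In the sign-changing part 1 of 6 hepatocyte, 1 of 5 macrophage and 1 of 4 adipose markers passed, and 0 in the lists for endothelium, stellate cells, bile duct, neutrophils, lymphocytes, pancreas and erythroid cells (limma, with 1, 0, 2, 1, 0, 0 and 0 genes at an unadjusted p under 0.05). These lists hold few genes, and the shares over all genes are 17.1% past the test and 38.4% at an unadjusted p under 0.05. Hepatocyte markers, Alb among them, had list means from -0.03 to 0.17 over the 4 arrays, but single genes differed. On array 4 they ran from -1.14 (Tat) to 1.31 (Apoa1). Single arrays stood apart in other lists. Pancreas markers had 0.20, 0.19, -0.09 and 1.18 on arrays 1 to 4, with Cpa1 at 2.21 and Ctrb1 at 1.46 on array 4, and the 2 measured erythroid markers had -0.71, 1.06, -0.01 and -0.86.

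**Figure D4:**
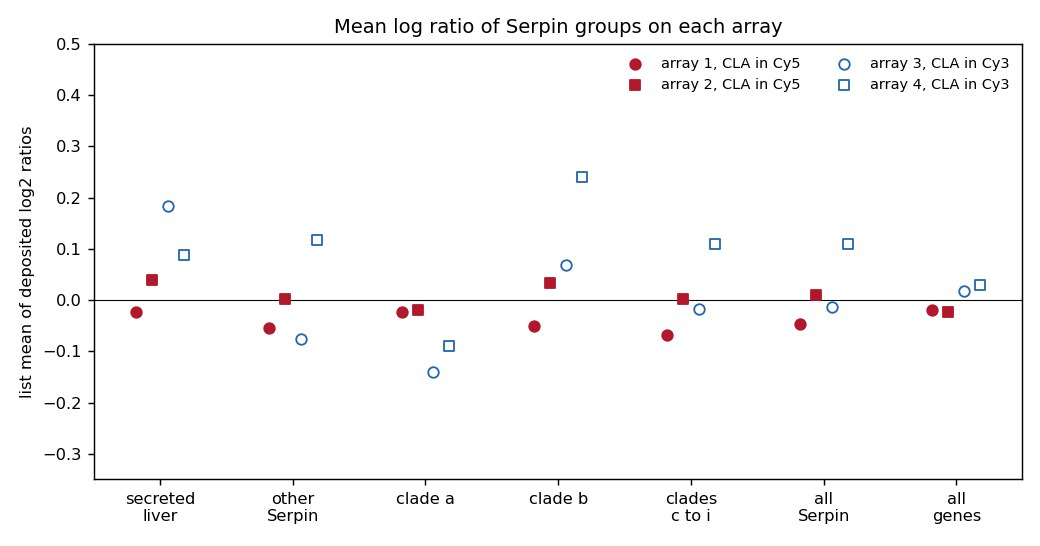
Mean deposited log2 ratio (vertical axis) of each Serpin group and of all genes on each array, with filled symbols for CLA in Cy5 and open symbols for CLA in Cy3. Clade b spans -0.05 to 0.24 and the secreted liver members -0.02 to 0.18, beside -0.02 to 0.03 for all genes. The clade b means include Serpinb9c, at 3.45 and 3.11 on arrays 3 and 4.

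Genes that act with the serpins were taken as whole lists. Of 25 measured proteases that serpins are known to inhibit or that act in the same cascades, 5 passed in the sign-changing part (20%, beside 17.1% of all genes). All 5 were negative, as were Serpinc1 and Serping1, beside 9.71% of all genes called negative. They were the clotting protease genes F7, F10 and F12 at -0.57, -0.59 and -0.48, plasma prekallikrein (Klkb1) at -0.66 and protein C (Proc) at -0.43, with limma adjusted p from 0.032 to 0.046. F2, which encodes prothrombin, the main target of antithrombin, was at -0.26 (adjusted p = 0.099), and Plg, plasminogen, at -0.33 (0.072). The leukocyte proteases did not share a sign and none passed: Elane, Ctsg and Gzmb were at 0.32, 0.24 and 0.23, and Prtn3 at -1.06 (limma adjusted p = 0.23), the lowest of the list, with -2.27 and 0.90 on arrays 1 and 2, against 1.93 and 0.92 on arrays 3 and 4. Of 23 measured other inhibitors, 6 passed (26.1%). Itih1, Itih3 and Itih4, heavy chains of the inter-alpha-trypsin inhibitor family, and Fetub were negative (-1.20, -0.70, -0.83 and -0.60), and the metalloprotease inhibitor Timp1 and Hrg were positive (0.36 and 0.34). Of 18 other secreted hepatocyte products, 4 passed, with transferrin (Trf) and haptoglobin (Hp) at -0.97 and -1.19 and Azgp1 and Apoh at 0.47 and 0.41. In the sign-keeping part none of these 3 lists had a call (limma, adjusted p under 0.05), beside 0% of all genes. There 2 of 25, 4 of 23 and 2 of 18 genes had an unadjusted p under 0.05, beside 13.5% of all genes. The median sign-changing part was -0.10 for the proteases, 0.03 for the other inhibitors and -0.06 for the secreted products, beside 0.02 over all genes.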

How the data were processed

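The authors deposited a table of log ratios, 1 column per 2-colour array and 22393 features. How they were normalized, their log base and their direction are not given in the sources used. The deposited values (lowest -3.17, highest 3.28) were taken as log10 ratios and multiplied by 3.32 to give log2; with base 2 every log2 value would be smaller by that factor. Column medians were 0.0010, -0.0023, -0.0020 and -0.0011 on arrays 1 to 4. No filter on dim spots was possible.

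A single symbol was given for 18218 features by the platform annotation, several for 16 and none for 4159. RefSeq gene numbers (GRCm38.p6) matched 18175 of them and changed 0 symbols. Spots of an accession, then accessions of a gene, were averaged. limma 3.58.1 (lmFit and eBayes, R 4.3.3) gave each gene 2 coefficients, the part that changes sign with the dye orientation and the part that keeps it, leaving 2 residual degrees of freedom, with Benjamini-Hochberg adjusted p-values under 0.05 called. The fit was tested on simulated data.

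Members given on all arrays are those past the threshold, the secreted liver list and the 3 highest and lowest members of each part, with the spots of Serpinb5 added after their values were seen. Members and lists were chosen with earlier results of these data known. Alternatives were median centring, a common spread, 1 coefficient, robust moderation, removal of a trend over feature number (span 0.3), accessions in place of genes, equal weight of features and leaving out each array; using features in place of genes was an addition made with the values known. Plots used Python 3.11.15 and matplotlib 3.10.9.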

Additional observations from a re-analysis of the deposited data

Results flagged for a closer look

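Serpinf1 had 1 array far from the others once arrays 3 and 4 were turned. Its values were then 0.11, 0.10, 0.10 and 0.22 on arrays 1 to 4, and the gap of array 4 to the nearest of the others was 0.949 of the range, above Dixon's critical value for 4 values. Of 86 such groups examined (42 members and Alb, each as deposited and with arrays 3 and 4 turned), this was the 1 found, and chance flags about 1 in 20.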

How the results depend on the processing

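With the other coefficient left out, 1203 genes and 4 members passed in the sign-changing part, and leaving out each array in turn gave 0 to 681 genes and 0 to 3 members. Each of these fits leaves fewer degrees of freedom or takes the other part as noise. Of the 7 members called, 4 kept their call without the other coefficient, 6 with arrays scaled, 1 with array 1 dropped, 2 with array 2 dropped and 0 with array 3 or array 4 dropped, all with their sign and with 0.81 to 1.19 times their value. The family's median sign-changing part ran from 0.038 to 0.11 when an array was left out. No call was made in the sign-keeping part under any alternative run (limma; at an unadjusted p under 0.05, 523 to 3177).

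Signs turned, for values not called, as follows, and the cause was not tested. The family's median sign-keeping part was -0.0025 with scaled arrays, -0.025 with array 2 dropped and -0.020 with array 4 dropped. In the sign-changing part Serpina10 was at -0.0026 with centred arrays. In the sign-keeping part Serpinc1 and Serping1 were at -0.033 and -0.028 with scaled arrays, and Serpind1, Serpinf1 and Serping1 at 0.040, 0.059 and -0.037 with the feature-number trend removed. Leaving out an array gave, in the sign-changing part, -0.11 to 0.12 for Serpina10, -0.069 to 0.36 for Serpina1d, -0.00044 to 0.073 for Serpina3n, -0.11 to 0.66 for Serpinb7 and -0.17 to 0.36 for Alb. In the sign-keeping part it gave -0.025 to 0.20 for Serpina10, -0.37 to 0.17 for Serpina4-ps1, -0.59 to 0.25 for Serpinb2, -0.70 to 0.075 for Serpinb7, -0.045 to 0.21 for Serpinc1, -0.056 to 0.0015 for Serpinf1 and -0.024 to 0.13 for Serping1. Signal over background is not known here. No paired analysis was possible because the labels give no replicate number that ties arrays of the 2 orientations.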
